A study of Mus musculus with 14 samples.

Results

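The comparison described here sets muscle precursor cells of 12-month-old mice against those of both other ages studied, 2 and 24 months. Its members are all 14 arrays of the series, which are 4 arrays at 12 months (middle-aged), 5 at 2 months (young) and 5 at 24 months (aged). All groups share the C57BL/6 background, the tissue and the sort: cells associated with muscle fibres were freed by digestion in 2 enzymatic steps and by mechanical dissociation, then sorted as CD45-Ter119-Sca-1-CD29+Cxcr4+. No group is labelled with a genotype or an agent, although the series title concerns restoring systemic GDF11. The labels do not say whether the arrays come from separate animals or from pools, so p-values measure the spread between these samples, which may be technical. For each gene the mean of log2 intensity over the 4 arrays at 12 months had the average of the 2-month mean and the 24-month mean subtracted from it. That difference is called the contrast, it is on the log2 scale, and it counts both other ages equally. A gene has a trough where its 12-month mean is below both other means, and a peak where it is above both.

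The sorted population is enriched for satellite cells, the stem cells that lie along the muscle fibre and rebuild it after injury. In resting muscle these cells are largely quiescent, with little cytoplasm, few mitochondria and low synthesis of RNA and protein, and activation is known to raise mitochondrial content, ribosome production and protein turnover before the first division. Mitochondria make the core of the respiratory chain on ribosomes of their own, whose protein subunits are all encoded in the nucleus, while the proteasome degrades proteins tagged with ubiquitin.

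No gene passed the test of the contrast at a Benjamini-Hochberg adjusted p under 0.05 among 13579 genes tested with limma, that is 0 percent. The smallest adjusted p was 0.0967 and was shared by 61 genes. At an unadjusted p under 0.05 there were 1614 genes (11.9%), of which 1039 (7.65%) were lower at 12 months and 575 (4.23%) higher. By shape alone, with no test, 4982 genes (36.7%) had a trough and 3902 (28.7%) a peak, while 4695 (34.6%) had a 12-month mean between the others. A trough with an unadjusted p under 0.05 was found for 1019 genes (7.5%) and a peak for 496 (3.65%). The list counts below are to be set against 7.65% lower, 4.23% higher, 36.7% with a trough and 28.7% with a peak. The lower side was more populous, by a margin that changed with the scaling of the arrays. It was also shallower. Among genes with an unadjusted p under 0.05, whatever their shape, 24 were lower and 74 higher by at least 1 on the log2 scale. The median SE of the contrast was 0.184, and the median half-width of its 95% interval was 0.391, so a gene of median spread needed a contrast beyond that to separate from 0.

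The separate steps behind the contrast were unequal in the same test. Against 2 months, 403 genes (2.97%) passed at an adjusted p under 0.05, 237 (1.75%) higher and 166 (1.22%) lower at 12 months. Against 24 months 0 passed, and 1306 genes (9.62%) had an unadjusted p under 0.05, of which 867 (6.38%) were lower at 12 months and 439 (3.23%) higher. Both steps share the 4 arrays at 12 months. No gene therefore passed on both sides, and each trough or peak below is given as values. The count for the contrast turned on the model: weights estimated for each array, which ranged from 0.596 (middle-aged 1) to 2.18 (middle-aged 4), gave 179 calls, 123 lower and 56 higher.

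The arrays also differed in a way that age did not explain. A principal component analysis of values centred within each age gave a leading component with 31.5% of the variance. Its sign placed young arrays 1, 3 and 4, middle-aged arrays 2, 3 and 4, and aged arrays 1 and 2 in a set of 8, and the remaining 6 in another. The set of 8 held 3 of the 4 arrays at 12 months and 5 of the 10 others, so list medians within it are given together after the lists. Hybridization controls averaged log2 10.3, 10.6 and 10.6 at 2, 12 and 24 months, and the excess of 3 prime over 5 prime signal on the control transcripts was 4.30, 3.85 and 3.54, which is ordered by age and has no turn at 12 months. The myogenic identity of the cells was present on all arrays: Pax7, the satellite cell transcription factor, ranged from 8.90 to 9.68 at 12 months and from 8.39 to 9.90 on the others, and Myod1, a myogenic regulator, from 10.54 to 11.12 against 10.54 to 11.33. Neither of 2 probe sets of Ptprc, which encodes the CD45 excluded by the sort, passed the filter on dim probe sets, and Ly6a (Sca-1) has no probe set of its own among those with 1 gene.

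The 8 troughs with the smallest p formed no single pathway. Borcs7, a subunit of the complex that positions lysosomes, stood first. It measured 6.72, 6.71, 6.84, 7.12 and 6.95 at 2 months, 5.99, 6.17, 5.90 and 5.44 at 12 months, and 6.82, 6.92, 6.87, 6.65 and 6.42 at 24 months. All 4 arrays at 12 months lay below all 10 others, with a contrast of -0.93 ± 0.15 (SE), a 1.90-fold lower level (95% interval -1.24 to -0.61, adjusted p 0.0967). Borcs7 fell between 2 and 12 months by 0.99 (adjusted p 0.00442), and its 12-month mean was 0.86 below that at 24 months (unadjusted p 0.000109).

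Med8, a subunit of the Mediator complex that links transcription factors to RNA polymerase, measured 8.32, 8.36, 8.08, 8.22 and 7.98 at 2 months, 7.60, 7.28, 7.23 and 7.45 at 12 months, and 8.25, 7.82, 8.47, 8.35 and 8.21 at 24 months. Again no 12-month array reached any other, and the depths on both sides were nearly equal, -0.80 against 2 months (adjusted p 0.00982) and -0.83 against 24 months (unadjusted p 5.97e-05). A second Med8 probe set of lower level gave a contrast of only -0.20.

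Slc11a2, an iron transporter of the endosome and cell surface, measured 8.16, 7.63, 8.43, 8.41 and 7.97 at 2 months, 6.06, 7.02, 6.28 and 6.63 at 12 months, and 7.17, 7.30, 6.78, 7.07 and 6.82 at 24 months. Most of its contrast of -1.07 ± 0.19 came from the early side, where it fell by 1.62 (adjusted p 0.000984). The gap to 24 months was -0.53, and middle-aged 2 lay above aged 3 and aged 5. Its other 3 kept probe sets gave -0.04, -0.43 and -0.50, which leaves the size tied to the probe set.

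Ccdc12, a spliceosome component, measured 8.53, 8.31, 8.35, 8.35 and 8.16 at 2 months, 7.21, 7.59, 7.77 and 6.91 at 12 months, and 8.46, 8.18, 7.99, 7.92 and 8.16 at 24 months. These groups did not overlap either (contrast -0.87 ± 0.16). Its probe sets disagreed in sign, with -0.65 from one and 0.28 from another, and the one used here is of a type that can share sequence with other transcripts.

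Zwint, a kinetochore protein, measured 9.93, 10.27, 10.14, 10.27 and 10.20 at 2 months, 9.16, 9.13, 8.45 and 9.31 at 12 months, and 9.38, 9.71, 9.67, 10.08 and 9.43 at 24 months. It fell by 1.15 from 2 to 12 months (adjusted p 0.00377) and was 0.64 lower at 12 than at 24 months. Its 5 other kept probe sets all gave contrasts below 0, from -0.99 to -0.39.

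The remaining troughs of this group were 2210016F16Rik (contrast -0.87), Ociad2 (-0.92) and Prkcq, the theta isoform of protein kinase C (-0.69). The 12-month arrays of 2210016F16Rik spanned 6.16 to 6.83 against 6.92 to 7.86 on the others, but its other 2 kept probe sets gave contrasts of 0.28 and -0.20. The 12-month arrays of Prkcq spanned 5.92 to 6.33 against 6.36 to 7.37. Ociad2 overlapped, since middle-aged 2 at 6.54 and middle-aged 4 at 6.35 lay above aged 1 at 6.34. All 8 troughs passed the 12 against 2 months test. The contrast that chose them contains that difference, so passing follows largely from the choice and is not separate evidence.

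**Figure D1:**
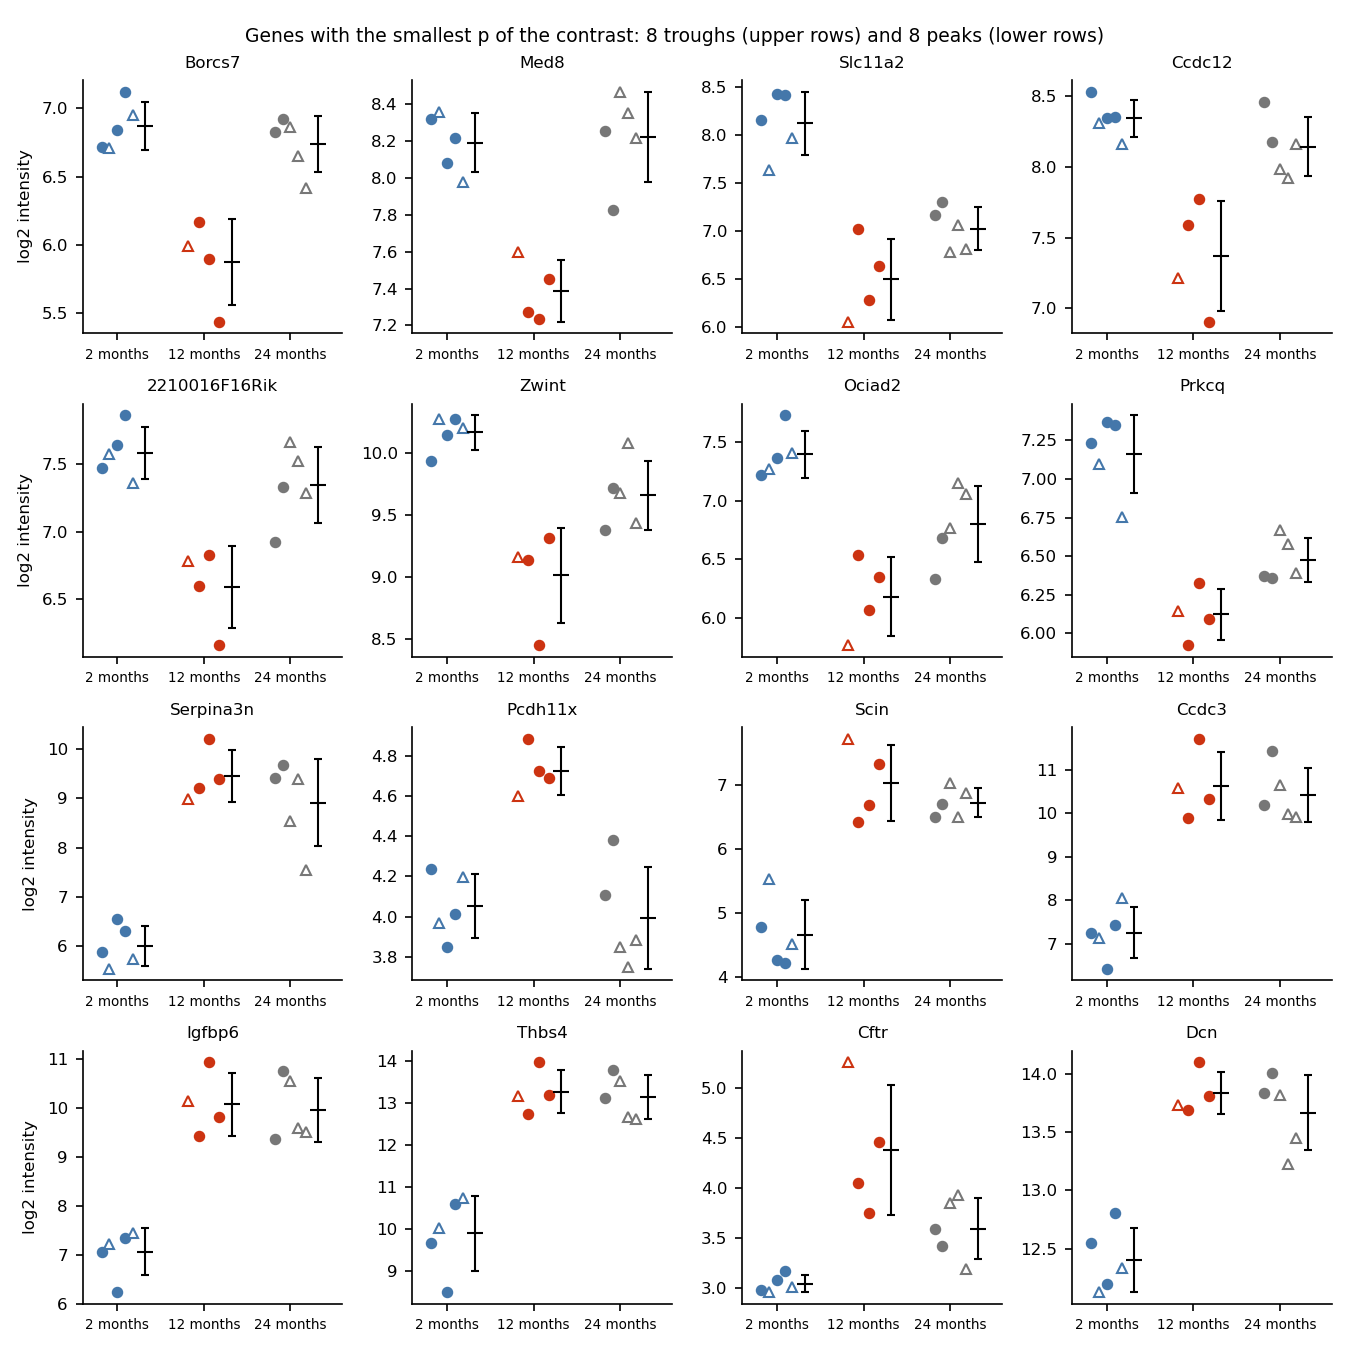
Log2 intensity of the 8 troughs and 8 peaks with the smallest p of the contrast on every array, by age, with the mean and SD of each age as a black bar; circles are the set of 8 arrays and open triangles the set of 6. Borcs7 at 12 months spans 5.44 to 6.17, below all 10 other arrays, whereas Thbs4 at 12 and 24 months overlaps and only the 2-month arrays stand apart.

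In 53 genes (0.39%) all 4 arrays at 12 months lay below all 10 others, and in 15 genes (0.11%) all lay above them. These genes were picked from these values, so their separation is a description. The 53 included, besides the troughs above, Orc4, part of the origin recognition complex that marks replication origins (contrast -0.98), Inip, a subunit of a complex that senses broken DNA (-1.10), Plk4, the kinase of centriole duplication (-1.06), Ppp1r7, a regulator of protein phosphatase 1 (-1.02), Taldo1, an enzyme of the pentose phosphate pathway (-0.61), and Commd7 (-0.73). The step, meaning the smaller of the distances to the other means, had a median of 0.45 in the 53 genes and reached 1.09. All but 1 of the 53 lay above the dim filter on all 14 arrays. Probe sets differed for some of these genes. The other kept ones gave -0.11 and -0.22 for Inip, -0.54, -0.26 and -0.12 for Orc4, and -0.32 for Ppp1r7.

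**Figure D2:**
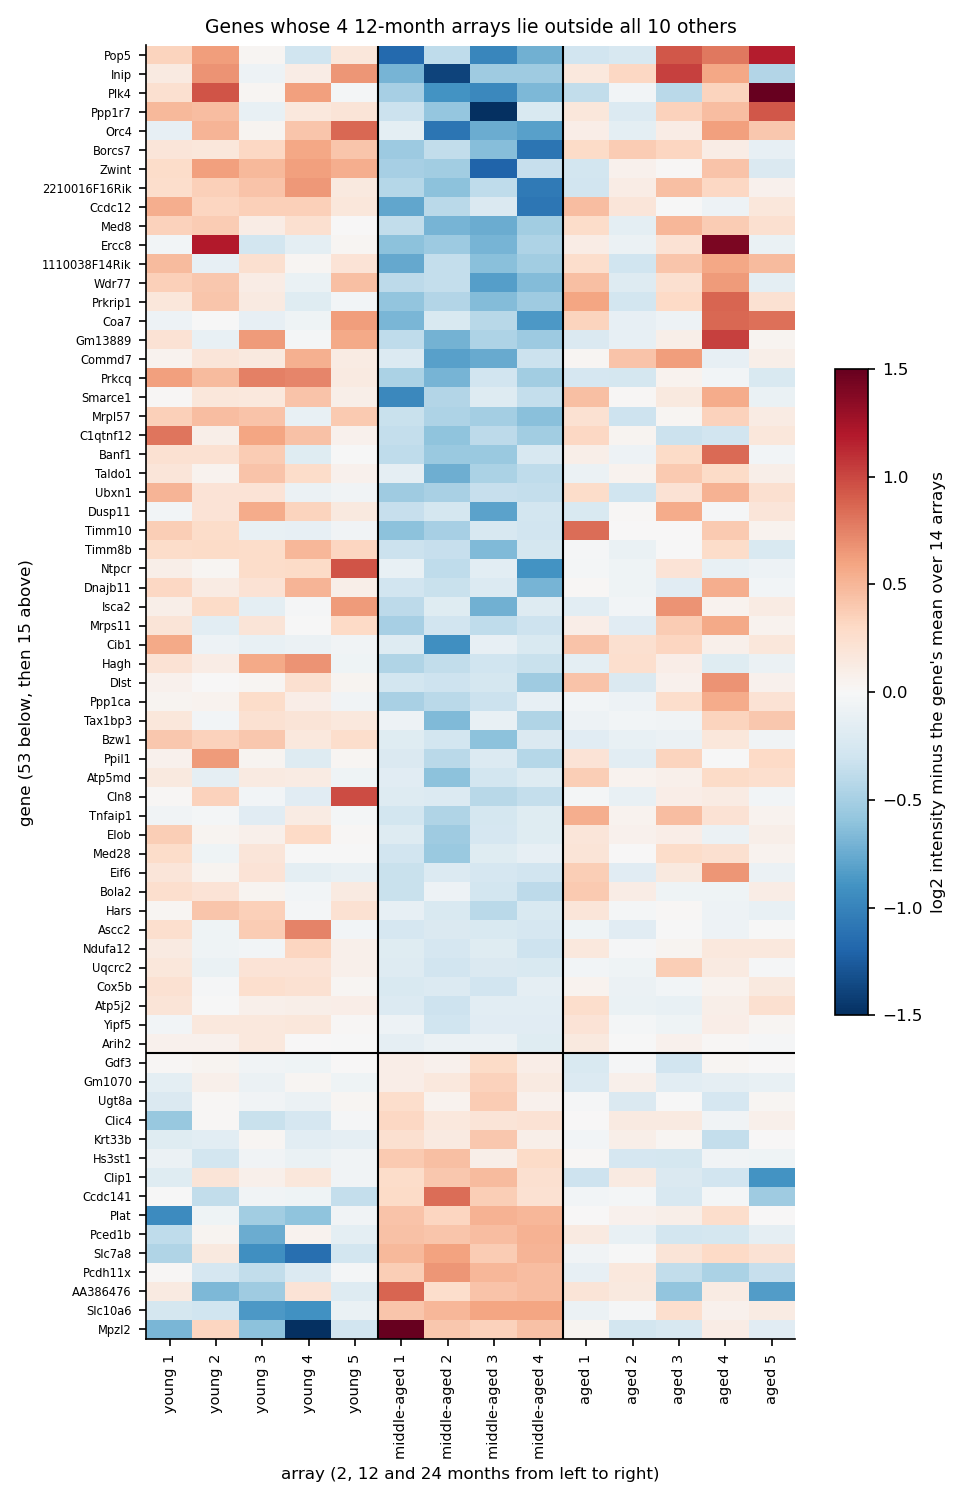
Log2 intensity minus the gene's mean over the 14 arrays, for the 53 genes whose 4 arrays at 12 months lie below all 10 others and the 15 whose arrays lie above, 1 row per gene and 1 column per array, ordered within each block by the contrast. The 12-month columns are uniformly blue in the upper block and red in the lower, while single arrays stand far from their own age group, such as aged 5 for Plk4, at 6.68 with the next aged array at 5.30.

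The mitochondrial ribosome was the list with the most uniform shape. All 22 measured members of the list had a trough, against 36.7% of all genes, and 11 of the 22 were lower at an unadjusted p under 0.05, against 7.65%. The median contrast of the list was -0.42, that of all genes -0.02. Widening it after these values were seen to every gene with an Mrpl or Mrps symbol gave 76 genes, of which 69 had a trough, 0 a peak and 7 a 12-month mean between the others. Of the 76, 34 (44.7%) were lower and 0 higher at an unadjusted p under 0.05, with a median of -0.39 and a range from -1.08 to 0.03. None passed the adjusted test of the contrast, and 2 passed the 12 against 2 months test, both lower.

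The mean over the 76 genes measured 7.55, 7.42, 7.53, 7.47 and 7.53 at 2 months, 7.28, 7.13, 7.08 and 7.18 at 12 months, and 7.65, 7.26, 7.66, 7.89 and 7.57 at 24 months. Young arrays agreed closely and aged arrays did not. A single other array, aged 2, lay within the 12-month range, just below middle-aged 1. Within the set of 8 arrays the median was -0.38 and 62 of the 76 genes had a trough.

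Mrps14, a protein of the small mitochondrial subunit, had the lowest contrast of the family (-1.08 ± 0.30) but rested on 3 arrays. It measured 8.85 on middle-aged 1 and 7.55, 7.68 and 7.33 on the other 3, against 8.62 to 9.43 at 2 months and 8.16 to 9.64 at 24 months. A second Mrps14 probe set of lower level gave -0.08. Mrpl57 was tighter, with 8.56, 8.42, 8.38 and 8.27 at 12 months against 8.78 to 9.36 at 2 months and 8.58 to 9.24 at 24 months, and no overlap (contrast -0.68 ± 0.14). It fell by 0.79 from 2 to 12 months (adjusted p 0.016). Mrps11 did not overlap either, with 5.20 to 5.40 at 12 months against 5.52 to 6.26 on the others (contrast -0.52 ± 0.14). Of the list members with the smallest p, Mrpl11 had a contrast of -0.41, Mrpl44 -0.63, Mrps7 -0.51 and Mrpl32 -0.64, with adjusted p between 0.183 and 0.198.

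Promoters are shown for genes of the mitochondrial ribosome and the respiratory chain because members of both groups shared the trough, and because binding sites of the nuclear factors NRF1 and YY1 are known from promoters of such genes. The motifs searched on both strands, in windows of 250 bases before to 50 after each RefSeq start (build GRCm38.p6), were the NRF1 core GCGCATGCG, the YY1 core AAGATGGCG and the ETS core CCGGAAGT. The NRF1 core reads nearly the same on both strands, so overlapping matches can be 1 site. It occurred in 1.75% of all 32851 promoters and in 3.12% of the promoters of genes tested, against 7 of 73 mitochondrial ribosome promoters (9.59%) and 7 of 70 respiratory chain promoters (10%). The YY1 core occurred in 1.4% of all and 2.54% of tested promoters, against 8 of 73 (11%) and 6 of 70 (8.57%). The ETS core occurred in 6.79% of tested promoters, 12 of 73 mitochondrial ribosome promoters (16.4%), 5 of 70 respiratory chain promoters (7.14%) and 7 of 33 proteasome promoters (21.2%). In proteasome promoters the NRF1 core occurred in 1 of 33 (3.03%) and the YY1 core in 2 of 33 (6.06%). These shares describe the gene groups whatever their values at 12 months. The 150 bases before the start are printed for 4 genes with an unadjusted p under 0.05 and a match there, with the NRF1 or YY1 core in capitals. They are examples: promoters on 1 chromosome were left out of the choice, and Atp5j, with a YY1 core, also met it but is not printed.
Mrps11, YY1 core on the opposite strand 108 bases before the start, chr7:78782981-78783130, plus strand: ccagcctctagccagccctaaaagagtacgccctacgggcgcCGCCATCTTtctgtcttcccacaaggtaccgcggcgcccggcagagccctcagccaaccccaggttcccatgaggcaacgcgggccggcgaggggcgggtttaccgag
Mrpl22, NRF1 core 33 bases before the start, chr11:58171514-58171663, plus strand: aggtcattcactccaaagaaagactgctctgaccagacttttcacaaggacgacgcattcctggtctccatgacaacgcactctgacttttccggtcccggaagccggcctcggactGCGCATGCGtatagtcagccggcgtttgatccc
Mrpl32, NRF1 core first met 87 bases before the start, with 3 matches counted on both strands, chr13:14613038-14613187, minus strand: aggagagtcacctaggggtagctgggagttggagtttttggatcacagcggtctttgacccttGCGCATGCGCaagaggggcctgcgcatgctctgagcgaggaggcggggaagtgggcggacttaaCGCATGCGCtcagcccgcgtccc
Ndufa8, NRF1 core on the opposite strand 9 bases before the start, chr2:36049339-36049488, minus strand: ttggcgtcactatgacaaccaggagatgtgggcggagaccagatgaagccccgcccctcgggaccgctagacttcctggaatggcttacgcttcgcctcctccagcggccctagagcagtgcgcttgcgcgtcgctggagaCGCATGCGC

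The genes behind these promoters had contrasts of -0.52 (Mrps11), -0.65 (Mrpl22), -0.64 (Mrpl32) and -0.52 (Ndufa8). Mrpl22 measured 7.69, 7.86, 7.17 and 7.46 at 12 months against 8.02 to 8.41 at 2 months and 7.60 to 8.65 at 24 months, where aged 5 overlapped. Ndufa8, a subunit of complex I, measured 8.74, 7.99, 7.91 and 8.17 at 12 months, so that middle-aged 1 stood within the range of the other ages.

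The respiratory chain, which carries electrons to oxygen and drives ATP synthase, had a shallower trough. Of 25 measured list members 21 had a trough, 11 (44%) were lower and 1 (4%) higher at an unadjusted p under 0.05, and the median contrast was -0.30. Among all 80 measured genes with Nduf, Sdh, Uqcr, Cox and Atp5 symbols, a family chosen after values were seen, 64 had a trough and 3 a peak. There 27 (33.8%) were lower and 2 (2.5%) higher, with a median of -0.25. The family mean measured 9.56, 9.43, 9.59, 9.47 and 9.48 at 2 months, 9.41, 9.12, 9.31 and 9.35 at 12 months, and 9.47, 9.44, 9.63, 9.70 and 9.72 at 24 months. All 4 arrays at 12 months lay below all 10 others, although the gap between middle-aged 1 and young 2 was narrow. None of the 80 passed the adjusted test of the contrast or the 12 against 2 months test.

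The separations were small in size but tight across arrays. Cox5b, a subunit of cytochrome oxidase, measured 12.36, 12.38, 12.30 and 12.45 at 12 months, against 12.57 to 12.84 at 2 months and 12.50 to 12.73 at 24 months. Uqcrc2, a core subunit of complex III, measured 10.62, 10.53, 10.59 and 10.58 at 12 months, against 10.71 to 11.01 and 10.74 to 11.18. Their contrasts were -0.30 ± 0.10 and -0.32 ± 0.11, that is 1.23-fold and 1.25-fold lower. Ndufa12, of complex I, and Atp5j2, of ATP synthase, did not overlap either, with contrasts of -0.32 and -0.29, though another Atp5j2 probe set gave 0.12. Uqcrb (-0.47), Sdhb (-0.41) and Atp5c1 (-0.52) had larger contrasts with overlap. The genes of this symbol family that were higher at an unadjusted p under 0.05 were Sdhc and Ndufa4l2, the latter included by its symbol alone.

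Mitochondrial import genes had a similar shape. Of 21 measured Timm and Tomm genes, a family chosen after values were seen, 16 (76.2%) had a trough and 8 (38.1%) were lower. Over all genes these shares were 36.7% and 7.65%. The family's median contrast was -0.25. Timm8b, a chaperone between the mitochondrial membranes, measured 7.46, 7.43, 7.12 and 7.52 at 12 months against 8.05 to 8.27 at 2 months and 7.55 to 8.05 at 24 months. It fell by 0.73 from 2 to 12 months (adjusted p 0.00849). Timm10, its relative, measured 9.44, 9.56, 9.81 and 9.77 against 9.94 to 10.89 on the others.

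The proteasome had the same shape. Of 27 listed members 23 (85.2%) had a trough, 10 (37%) were lower and 0 higher at an unadjusted p under 0.05, with a median of -0.32. Over all genes 36.7% had a trough, 7.65% were lower and 4.23% higher. Psma5, a subunit of the core ring, measured 10.81, 10.53, 10.26 and 10.62 at 12 months, 10.99 to 11.16 at 2 months and 10.77 to 11.25 at 24 months, so that only middle-aged 1 and aged 2 overlapped (contrast -0.49 ± 0.12, adjusted p 0.126). Psmc5, an ATPase of the regulatory cap, measured 7.59, 7.63, 7.81 and 7.31 against 7.78 to 8.24 and 7.80 to 8.65 (contrast -0.52 ± 0.16). Over all 37 measured proteasome genes with such symbols 29 had a trough. The genes without one included Psmb8, Psmb9 and Psmb10, the subunits that interferon induces.

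The subunits of RNase P and RNase MRP, enzymes that trim transfer RNA and ribosomal RNA precursors, gave a wider separation of the group mean than the mitochondrial and proteasome families. This family was also chosen after its values were seen. All 9 measured genes had a trough and 4 (44.4%) were lower at an unadjusted p under 0.05. The mean of the 9 measured 6.88, 6.91, 6.71, 6.74 and 6.76 at 2 months, 6.27, 6.33, 6.18 and 6.25 at 12 months, and 6.98, 6.63, 6.63, 7.19 and 6.80 at 24 months, so no 12-month array came near another age. Pop1, the largest protein of both enzymes, measured 4.27, 5.78, 4.98 and 4.62 at 12 months, 5.74 to 6.72 at 2 months and 5.53 to 6.38 at 24 months. It fell by 1.18 from 2 to 12 months (adjusted p 0.0409), but a second, dim probe set gave -0.03. Pop5 measured 5.03, 5.81, 5.22 and 5.47 at 12 months and 5.89 to 7.37 on the others (contrast -1.13 ± 0.27). Rpp30 measured 7.75, 7.37, 7.24 and 7.18, with aged 3 at 7.65 inside that range (contrast -0.91 ± 0.22). A second Rpp30 probe set of lower level gave -0.18.

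Ribosome production in the nucleolus was less uniform. Of 25 measured genes 17 had a trough but only 2 (8%) were lower at an unadjusted p under 0.05, near the 7.65% of all genes. Those were Wdr12 (contrast -1.07) and Pes1 (-0.77), which belong to a single complex in assembly of the large subunit. Another kept probe set, of lower level, gave -0.29 for Wdr12 and -0.14 for Pes1. Wdr12 measured 5.49, 5.76, 6.08 and 6.29 at 12 months, 6.83 to 7.32 at 2 months and 6.01 to 7.45 at 24 months, where aged 2 and aged 5 lay inside the 12-month range. Cytosolic ribosomal proteins had a median of -0.06 over 16 measured genes. Of these 10 (62.5%) had a trough and 0 a peak, and 2 (12.5%) were lower at an unadjusted p under 0.05. Within the set of 8 arrays the same list had 3 troughs and 5 peaks, with a median of 0.02. Of 19 genes of the COMM domain and COP9 families 15 had a trough and 6 (31.6%) were lower, and of 30 Mediator genes 19 had a trough and 9 (30%) were lower, with Med13l higher. Both families were chosen after values were seen.

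**Figure D3:**
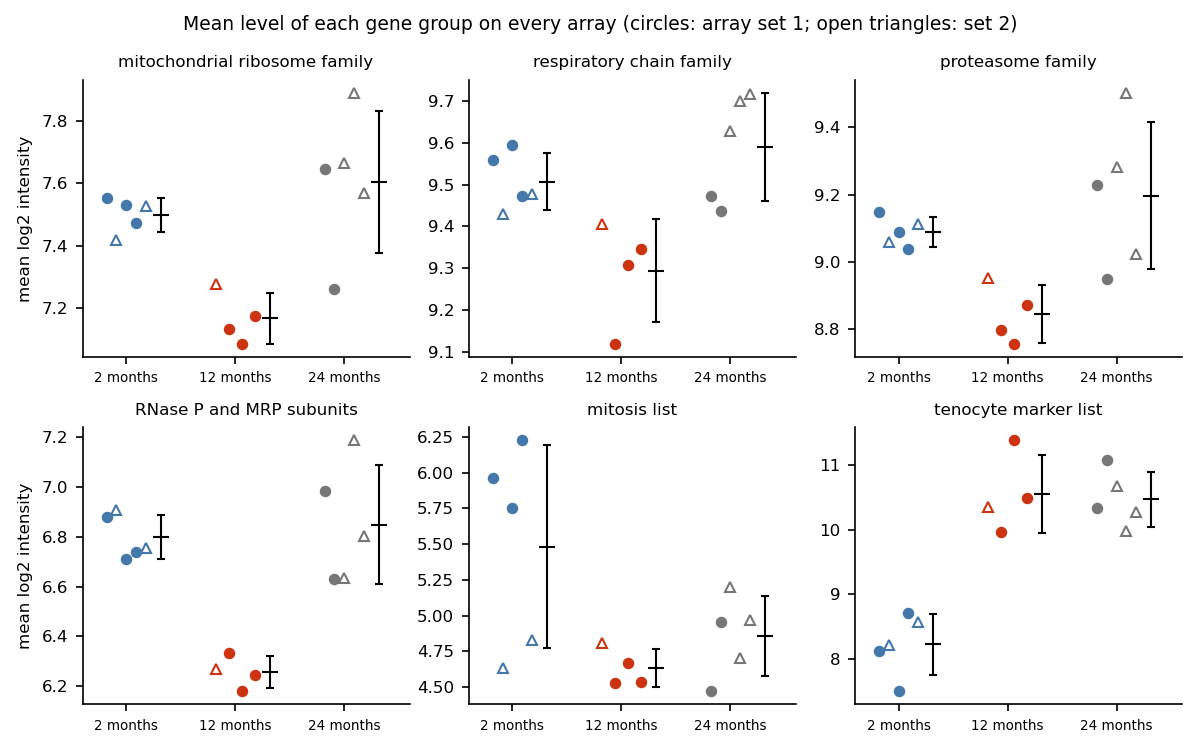
Mean log2 intensity of each gene group on every array, by age, with the mean and SD of each age as a black bar; circles are the set of 8 arrays and open triangles the set of 6. The RNase P and respiratory chain means at 12 months lie below all 10 other arrays, the mitochondrial ribosome and proteasome means overlap with 1 aged array, the mitosis mean is high only on 3 young arrays, and the tenocyte marker mean is low only at 2 months.

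Summed levels of markers of other cell types were set beside these groups. The mean level of mature myofibre genes, 28 measured, averaged 6.60, 6.85 and 7.80 at 2, 12 and 24 months and spanned 6.55 to 7.21 at 12 months against 5.99 to 8.21 on the others. This mean was ordered by age and had no turn at 12 months. The list's median contrast was still below 0, at -0.34, with 7 troughs (25%) and 0 peaks. Of its genes 2 (7.14%) were lower at an unadjusted p under 0.05. Over all genes 36.7% had a trough and 7.65% were lower. Within the set of 8 arrays the list's median was -0.37, with 13 troughs of 28. Endothelial markers (12 measured) averaged 5.41, 5.24 and 5.59, with 5.07 to 5.39 at 12 months inside the 4.99 to 6.73 of the others. Fibro-adipogenic markers (14 measured) averaged 9.14, 9.68 and 9.71, with 6 peaks, 3 genes (21.4%) higher at an unadjusted p under 0.05 and a median contrast of 0.32. Adipocyte markers (7 measured) averaged 5.93, 6.86 and 7.02, with 2 (28.6%) higher and a median of 0.49. Lymphoid markers (5 measured) had 4 peaks, 1 gene (20%) higher and a median of 0.17, with a mean of 4.59 to 5.01 at 12 months against 4.38 to 4.81 on the others. Macrophage markers (11 measured) had 1 (9.09%) higher and a median of 0.06. Neutrophil markers (8 measured) had a median of -0.36 with none at an unadjusted p under 0.05, and a mean of 4.57 to 5.38 against 4.09 to 6.43. In bulk samples, fewer cells of a type and less RNA per cell cannot be told apart. The part of these measures in the troughs was not tested.

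Genes of cell division were low at 12 months, but the arrays at 2 months were divided. The 18 measured mitosis genes included 12 troughs (66.7%, against 36.7% of all genes). Of the 18, 6 (33.3%, against 7.65%) were lower at an unadjusted p under 0.05. The median contrast of the 18 genes was -0.49. Their mean measured 5.96, 4.63, 5.76, 6.23 and 4.83 at 2 months, 4.81, 4.52, 4.67 and 4.53 at 12 months, and 4.47, 4.96, 5.20, 4.70 and 4.97 at 24 months. The high values were those of young 1, 3 and 4, all in the set of 8 arrays. Young 2 and aged 4 lay within the 12-month range, young 5 just above it and aged 1 below it.

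Mki67, a marker of cycling cells, shows this spread. It measured 7.86, 4.74, 7.63, 8.55 and 4.70 at 2 months, 4.96, 4.61, 4.92 and 4.60 at 12 months, and 4.29, 6.77, 7.70, 5.20 and 6.05 at 24 months. Its contrast of -1.58 had an SE of 0.70 and an adjusted p of 0.387. Top2a, a topoisomerase of dividing cells, followed it with 4.01 to 5.16 at 12 months, up to 7.60 at 2 months and 7.82 on aged 3. Another Top2a probe set gave 0.08.

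Cdca8, borealin of the chromosomal passenger complex, had the lowest contrast of any gene (-2.21 ± 0.49). It measured 8.18, 6.14, 7.03, 8.05 and 6.26 at 2 months, 4.79, 4.62, 3.97 and 3.32 at 12 months, and 3.96, 5.04, 5.95, 6.44 and 6.74 at 24 months. It fell by 2.96 from 2 to 12 months (adjusted p 0.00982), and of all 10 other arrays only aged 1 reached the 12-month range. Its 12-month values of 3.97 and 3.32 were close to or below the dim filter of log2 3.79 to 3.96. Another kept Cdca8 probe set, of lower level, gave a contrast of -1.33. Of 24 measured genes of DNA replication 14 (58.3%) had a trough, against 36.7% of all genes. Only 1 (4.17%, against 7.65%), the polymerase subunit Pold1, was lower at an unadjusted p under 0.05 (contrast -0.58). Another kept Pold1 probe set gave -0.08.

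Genes of myogenic commitment, which mark precursor cells on the way to fibres, had a median contrast of -0.47, with 13 troughs among 21. Only 3 of the 21 (14.3%) were lower at an unadjusted p under 0.05: Chrna1, Myl4 and Chrng. Another kept Myl4 probe set gave a contrast of -0.02. Chrna1, the acetylcholine receptor subunit of muscle, measured 9.18, 7.91, 9.45, 9.16 and 8.58 at 2 months, 6.24, 7.05, 7.01 and 6.40 at 12 months, and 7.15, 7.48, 8.14, 6.70 and 7.86 at 24 months. It fell by 2.18 from 2 to 12 months (adjusted p 0.00236), and aged 4 alone lay within the 12-month range. Myog, the regulator of differentiation, ranged from 5.91 to 6.80 at 12 months, from 5.45 to 9.82 at 2 months and from 5.73 to 8.52 at 24 months (contrast -1.27 ± 0.66, adjusted p 0.465). The young arrays high in Myog were the same 3 that were high in Mki67.

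**Figure D4:**
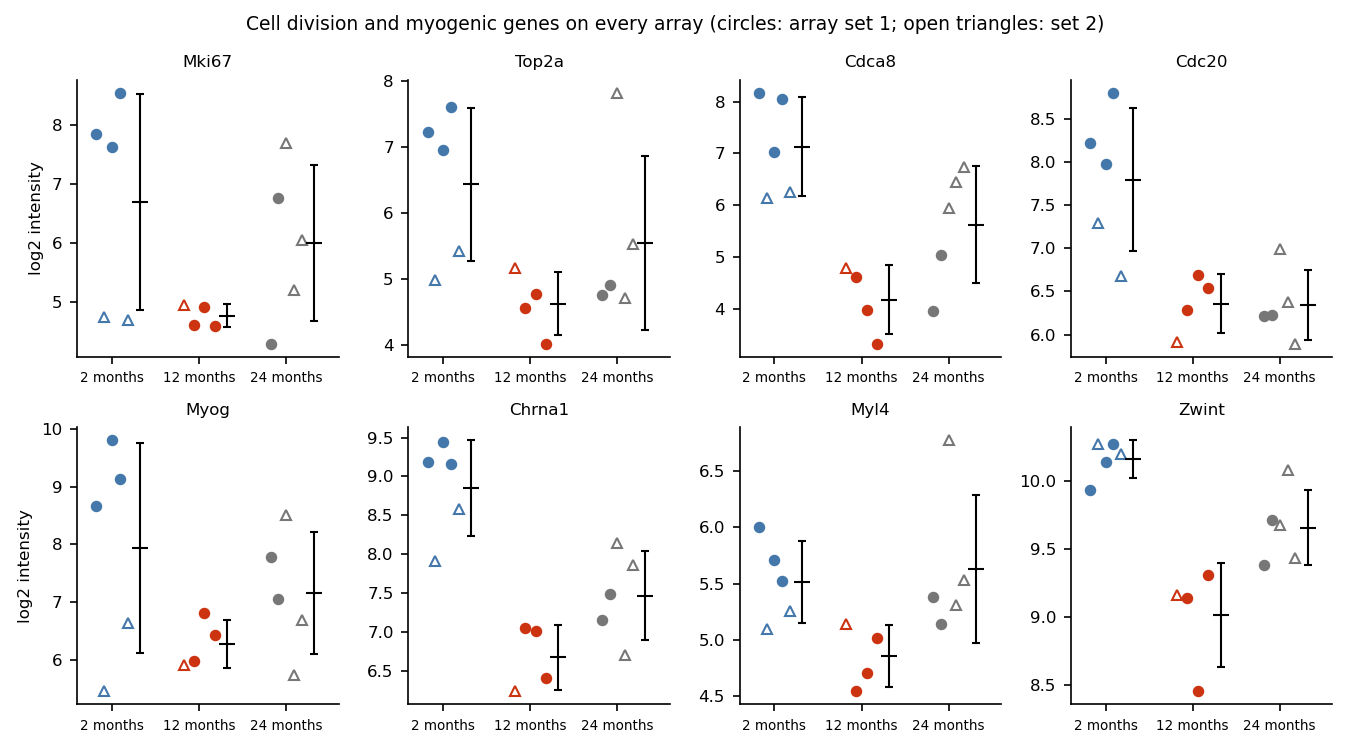
Log2 intensity of cell division genes (Mki67, Top2a, Cdca8, Cdc20, Zwint) and myogenic genes (Myog, Chrna1, Myl4) on every array, by age, with the mean and SD of each age as a black bar; circles are the set of 8 arrays and open triangles the set of 6. Mki67 at 12 months spans 4.60 to 4.96, level with young 2 and young 5, while young 1, 3 and 4 stand at 7.63 to 8.55.

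The satellite cell identity list did not share the trough. Only 3 of its 27 genes had one and 19 lay between the other ages, with a median of -0.01. Hey1, a Notch target, had a contrast of -0.54 and Met, the receptor for hepatocyte growth factor, -0.34, and these 2 (7.41%) were the list's genes lower at an unadjusted p under 0.05. Cholesterol synthesis genes were all below 0 in contrast, from -0.67 to -0.04 over 20 genes, with 10 troughs and 3 (15%) lower. Fdft1, squalene synthase, fell by 0.89 from 2 to 12 months (adjusted p 0.0402) and had a contrast of -0.62. Dbp, a clock-controlled transcription factor, fell by 1.54 (adjusted p 0.00436). It measured 7.15, 7.44, 7.23 and 7.22 at 12 months, 8.08 to 9.20 at 2 months and 7.17 to 8.43 at 24 months, and it was the single clock gene of 20 with an unadjusted p under 0.05 (contrast -1.06).

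**Figure D5:**
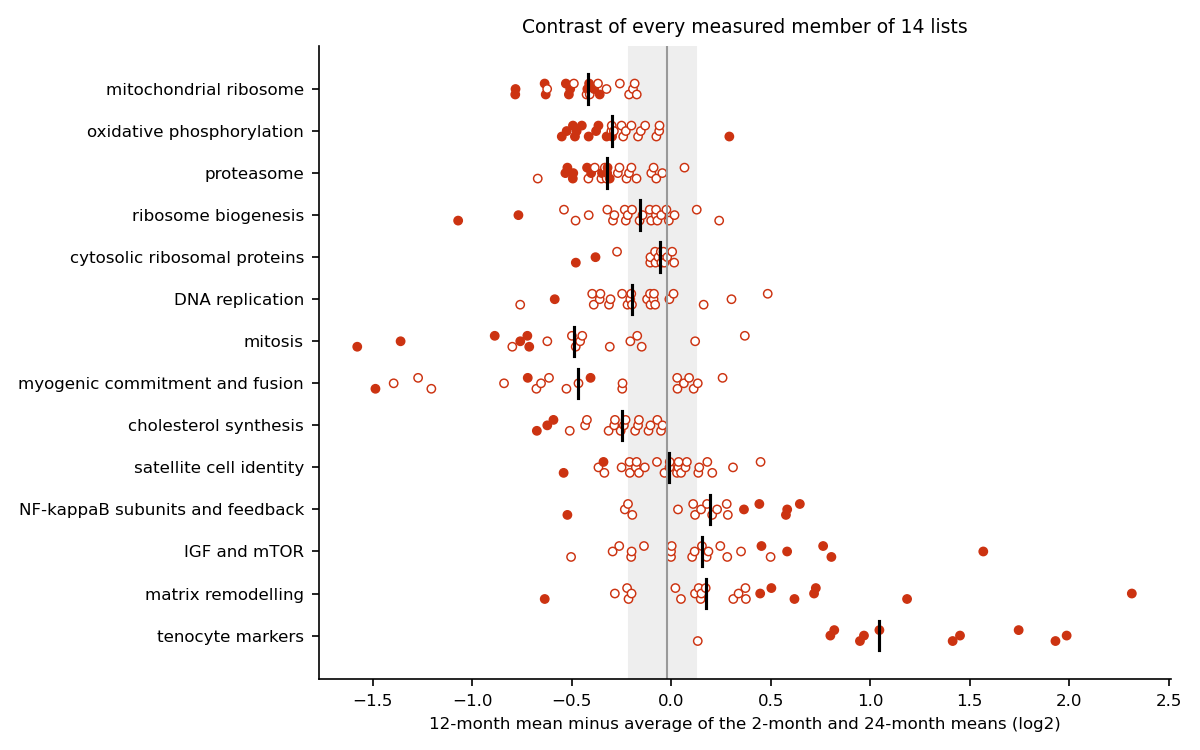
Contrast of every measured member of 14 gene lists; filled points have an unadjusted p under 0.05, the black bar is the list's median, the grey line the median of all genes (-0.02) and the grey band the middle 50 percent of all genes. The mitochondrial ribosome points all lie below 0, and the tenocyte markers all lie above it.

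The 8 peaks with the smallest p were mostly genes that rose by 12 months and stayed high. Serpina3n, a secreted inhibitor of serine proteases, measured 5.88, 5.54, 6.54, 6.31 and 5.74 at 2 months, 8.996, 9.21, 10.21 and 9.39 at 12 months, and 9.41, 9.68, 8.53, 9.39 and 7.54 at 24 months. Its contrast was 1.99 ± 0.34, a 3.98-fold higher level (adjusted p 0.0967), but the rise from 2 to 12 months was 3.45 (adjusted p 0.000431) and the excess over 24 months only 0.54 (unadjusted p 0.182). Scin, an actin-severing protein, rose by 2.37 to 12 months (adjusted p 0.000549), with 0.31 over 24 months. Ccdc3 (rise 3.37), Igfbp6, a binding protein for insulin-like growth factor II (3.01), Thbs4, a tendon matrix glycoprotein (3.37), and Dcn, the matrix proteoglycan decorin (1.43), exceeded 24 months by between 0.12 and 0.20. For these genes the contrast therefore records a step after 2 months more than a peak.

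Pcdh11x and Cftr were the exceptions. Pcdh11x, a protocadherin, measured 4.24, 3.97, 3.85, 4.01 and 4.19 at 2 months, 4.60, 4.88, 4.73 and 4.69 at 12 months, and 4.11, 4.38, 3.85, 3.75 and 3.88 at 24 months. All 4 arrays at 12 months lay above all others by similar distances, 0.67 over 2 months (adjusted p 0.0248) and 0.73 over 24 months (unadjusted p 0.00019), though at a level close to the dim filter of log2 3.79 to 3.96. Cftr, a chloride channel, measured 5.25, 4.05, 3.75 and 4.46 at 12 months, 2.97 to 3.18 at 2 months and 3.19 to 3.93 at 24 months, and was likewise dim.

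Of the 15 genes with all 12-month arrays above the others, only 9 lay above the dim filter on all 14 arrays, and their median level over the 14 arrays was 4.40 against 8.60 for the 53 below. Of the 15, the 6 described here were chosen after their values were seen. Slc10a6, a transporter of sulphated steroids, measured 11.38, 11.47, 11.56 and 11.56 at 12 months, 10.06 to 10.87 at 2 months and 10.88 to 11.22 at 24 months, and rose by 1.01 from 2 to 12 months (adjusted p 0.005). Plat, the tissue plasminogen activator, measured 10.43, 10.33, 10.53 and 10.50 at 12 months, 9.06 to 9.95 at 2 months and 10.004 to 10.26 at 24 months. Its rise was 0.88 (adjusted p 0.012). Slc7a8, an amino acid transporter, measured 6.96, 7.08, 6.85 and 6.99 against 5.34 to 6.77 on the others. Mpzl2, an adhesion protein, measured 8.72 on middle-aged 1 but 6.82 to 6.91 on the other 3, against 4.83 to 6.80 elsewhere. Clic4, an intracellular chloride channel protein, and Clip1, a protein that binds microtubule ends, were also bright, with contrasts of 0.30 and 0.48.

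A few further genes above both other means are given next, chosen after their values were seen. Igfbp5, another binding protein for insulin-like growth factors, measured 11.95, 11.77, 12.65 and 12.28 at 12 months, 10.85 to 11.46 at 2 months and 11.07 to 11.98 at 24 months. It rose by 0.98 (adjusted p 0.0243) and exceeded 24 months by 0.63 (unadjusted p 0.0109). Foxo1, a transcription factor that insulin signalling restrains, had a contrast of 0.45 with 0.39 and 0.51 over the younger and older cells. In the list of insulin-like growth factor and mTOR genes 12 of 23 had a peak and 5 (21.7%) were higher at an unadjusted p under 0.05, against 28.7% and 4.23% of all genes, with a median of 0.15. Within the set of 8 arrays that list had a median of 0.01, with 7 peaks and 7 troughs, so the excess of peaks was not seen there. Fgf9 rose by 1.79 (adjusted p 0.011) to 5.71 to 7.43 at 12 months, with 4.74 to 6.63 at 24 months. A second, dimmer Fgf9 probe set gave a contrast of 0.02. Zbtb16, a zinc finger repressor, had nearly equal excesses of 0.90 and 1.03 and overlapped the others only through aged 2.

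Tenocyte markers, an outside cell type, had the highest median of any list, 1.05. Of 11 measured markers 8 had a peak and 10 (90.9%) were higher at an unadjusted p under 0.05, and 9 passed the 12 against 2 months test, all higher. Their mean measured 8.12, 8.22, 7.49, 8.71 and 8.56 at 2 months, 10.35, 9.96, 11.39 and 10.49 at 12 months, and 10.33, 11.07, 10.68, 9.98 and 10.27 at 24 months. The 12-month and 24-month arrays overlapped throughout, with a median difference of 0.12 over the markers. Middle-aged 3 was the highest array in this mean and also the highest in Serpina3n, Ccdc3, Igfbp6, Thbs4 and Dcn. Thbs4 and Dcn are themselves on the marker list, so the marker mean and these peaks are in part the same measurement. The defining tenocyte gene Tnmd, tenomodulin, was present at every age, at 7.20 to 8.68 at 2 months and 10.10 to 12.13 at 12 months. The part of such cells in the peaks was not tested. Matrix remodelling genes (23 measured) gave 11 peaks and 7 (30.4%) higher. The smallest p of that list belonged to Lox, which crosslinks collagen (contrast 1.19, rise 2.27, 0.10 over 24 months), and its highest contrast to Mmp3 (2.31). A second Dcn probe set, dim, gave -0.10.

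The NF-kappaB list, which holds subunits of this inflammatory transcription factor and its feedback inhibitors, had peaks in 11 of 18 genes (61.1%). Of the 18, 5 (27.8%) were higher and 1 (5.56%) lower at an unadjusted p under 0.05, and the median was 0.19. Over all genes 28.7% had a peak, 4.23% were higher and 7.65% lower. Birc3, a ubiquitin ligase that the factor induces, measured 10.79, 9.96, 10.40 and 10.37 at 12 months, 9.26 to 9.65 at 2 months and 9.59 to 10.48 at 24 months, and it rose by 0.88 (adjusted p 0.0225). Nfkbie, an inhibitor of the factor, rose by 1.35 (adjusted p 0.00122) and did not turn back, with -0.06 against 24 months. Cyld, a deubiquitinase that restrains the pathway, was the gene lower at 12 months (contrast -0.52). It fell by 0.72 (adjusted p 0.0366), while its other kept probe sets differed in sign, with contrasts of -0.40, 0.03 and 0.19.

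Inflammatory secreted factors and interferon response genes had positive median contrasts, 0.39 and 0.15. Of 21 measured secreted factors 5 (23.8%) were higher and 6 (28.6%) had a peak, while 13 lay between the other ages. Over all genes 4.23% were higher and 28.7% had a peak, so peaks among secreted factors were at that share. Mmp3, a matrix protease, rose by 5.69 (adjusted p 0.000407) and had the highest contrast of any gene, 2.31, yet its 12-month mean was 1.07 below that at 24 months. Of 24 measured interferon genes 5 (20.8%) were higher and 9 (37.5%) had a peak, while 14 lay between. A positive contrast alone does not show a peak, so the shape has to be read with it.

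Within the set of 8 arrays, which leaves 3 arrays at 12 months against 5 others, the median contrast of all genes was -0.04, with 4780 troughs and 3436 peaks among 13579 genes. The respiratory chain family had a median of -0.22 there with 58 troughs of 80, the proteasome list -0.27 with 23 of 27, and the RNase P and MRP family -0.52 with 9 of 9. Ribosome biogenesis had -0.28 with 15 troughs of 25 and DNA replication -0.20 with 16 of 24. The mitosis list was lower there than over all arrays, at -0.79 with 10 troughs of 18, and myogenic commitment stood at -0.51 with 11 of 21. Cholesterol synthesis had -0.17 with 11 troughs and 2 peaks of 20. On the higher side, tenocyte markers had 1.15 with 5 peaks of 11, matrix remodelling 0.30 with 6 of 23, NF-kappaB 0.14 with 10 of 18, secreted factors 0.21 with 3 of 21, and interferon response 0.18 with 10 of 24.

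The list around TGF-beta, GDF11 and BMP, the signalling family of the series title, had 9 peaks and 4 troughs among 32 genes and a median of 0.07. These were 28.1% and 12.5% of the list, against 28.7% and 36.7% of all genes, so peaks were no more frequent than elsewhere. Of the 32 genes 2 (6.25%, against 4.23% of all genes) were higher at an unadjusted p under 0.05, Bmp4 (contrast 0.59) and the co-receptor Tgfbr3 (0.30). Gdf11 itself measured 4.96, 5.04, 4.92 and 4.48 at 12 months, 4.59 to 5.04 at 2 months and 4.31 to 4.93 at 24 months, which overlap. Mstn, its close relative, has no probe set of its own among those with 1 gene. Hox genes had 11 peaks among 18, none with an unadjusted p under 0.05.

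The genes most like the leading trough and the leading peak over the 14 arrays were found by Pearson correlation, as a description. Grpel2, a co-chaperone of mitochondrial import, was nearest to Borcs7 (r 0.93), followed by 2210016F16Rik (0.87), Ccdc12 (0.87), the mitochondrial ribosomal protein gene Mrpl21 (0.85) and Rpn1, of the oligosaccharyltransferase (0.84). Their contrasts ran from -0.87 to -0.38. The genes nearest to Serpina3n were Prelp (r 0.95), Fbln1 (0.95), Neat1 (0.95), Mfge8 (0.95) and Chst11 (0.94), of which Prelp and Fbln1 encode matrix proteins. All 5 passed the 12 against 2 months test as higher, and their excess over 24 months was at most 0.38. They were picked for likeness to Serpina3n, which has that rise, so passing follows largely from the choice.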

How the data were processed

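Sorted precursor cells were profiled on 14 Affymetrix mouse arrays, after Trizol extraction and biotin labelling per the labels' protocols. The authors applied RMA per the submitters' processing notes, and deposited intensities that are linear, with medians of 19.0 to 21.2 per array; the RMA version is not given in the sources used here. Log2 was taken with no further normalization. Of 45101 probe sets, 34945 were annotated to 1 gene, 932 to several and 9160 to none (64 controls apart), per a platform annotation that may be old. A probe set was kept if above its array's 40th percentile on at least 4 arrays, and the kept probe set with the highest mean stood for each of 13579 genes. One model per gene over all 14 arrays, with age as the only factor, was fitted in limma 3.58.1 (R 4.3.3, moderated two-sided tests, Benjamini-Hochberg over all genes, threshold 0.05). It was tested on simulated data. Errors of contrasts are moderated SEs. Array number limits the precision.

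Genes were named by a rule: troughs and peaks called and not overlapping, filled to 8 each by the smallest p since none was called, up to 4 genes per list by smallest p, fixed lineage genes, and the 5 genes most correlated with the top trough and peak. Others were chosen after their values were seen: symbol families, the genes named from them or from the non-overlapping genes, Ndufa8, Mrpl22, Cdca8, Igfbp5, Fgf9, Zbtb16 and Tnmd. Members and lists were chosen with earlier results of these data known. Promoters are from RefSeq (GRCm38.p6), which held 132 of 156 genes of both mitochondrial families. Alternatives covered scaling, filters, probe set choice, weights, covariates, array sets and each array left out.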

Additional observations from a re-analysis of the deposited data

Results flagged for a closer look

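Sets of 4 or 5 arrays of 1 age, 249 in all, were examined for named genes, list and family means and array control measures. Chance alone marks about 1 in 20 as holding an array far from the rest. Such an array was held by 11 sets (4.42%), all of them for genes. Of these, 3 concerned the 12-month arrays: Mpzl2 on middle-aged 1 at 8.72, with the next array at 6.91, and, on middle-aged 2, Uqcrb at 12.035 (next 12.489) and Atp5c1 at 10.43 (next 10.80). Aged 3 was high in Top2a (7.82, next 5.52), Myl4 (6.78, next 5.53) and Cenpe, a kinetochore motor (5.54, next 4.03). Aged 4 was high in Mrps7 (9.91, next 9.22), and aged 1 low in Atp5c1 (10.78, next 11.20). Young 4 was high in Timm8b (8.27, next 8.10) and Commd7 (6.77, next 6.42) and low in Mrpl57 (8.78, next 9.24).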

How the results depend on the processing

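The count of 0 genes past the adjusted test of the contrast held under 12 of 16 settings other than leaving out an array. With array weights 179 genes passed (123 lower, 56 higher, 122 troughs, 46 peaks), with the hybridization controls as a covariate 16 (7 lower, 9 higher, 7 troughs, 7 peaks), with the array set as a term 7 (4 lower, 3 higher, 4 troughs, 2 peaks), and on log2 of intensity plus 16, which shrinks dim probe sets, 3 (2 lower, 1 higher, 2 troughs). The array set and the weights were both taken from these same values. A term for the set lowers the remaining spread by construction, so its calls are not separate evidence. Leaving out each array in turn gave 0 to 1, the 1 being a trough without middle-aged 1 and a peak without middle-aged 2. Of the 8 troughs and 8 peaks named by smallest p, the weights called 8 and 8, the covariate 4 and 5, and the array set term 4 and 2. Counts at an unadjusted p under 0.05 moved from 1039 lower and 575 higher to 1589 and 871 with weights, to 23 and 47 where a fold of at least 1.5 was tested, and to 692 to 1452 and 377 to 738 without 1 array. The 53 genes below all others became 26 without probe sets of shared sequence and 688 in array set 1 alone, where fewer arrays have to separate. The 15 above became 6 with arrays centred on their medians, 25 with no dim filter, 7 with a stricter one and 294 in array set 1 alone. Without 1 array these counts were 56 to 263 and 17 to 126, again with fewer arrays to separate, the highest without middle-aged 1. No gene passed both pairwise tests under any setting run. Of 2052 values of 69 named genes under alternatives, 2050 kept their direction. The exceptions were Ccdc12 (0.28) and Top2a (0.079) without probe sets of shared sequence, where another probe set stands for the gene. Medians of the 12 lists and families followed kept their sign. That of all Mrpl and Mrps genes ranged from -0.44 to -0.31. Those that moved by over 1.5 times were oxidative phosphorylation (-0.30, and -0.19 without middle-aged 2), DNA replication (-0.20, and -0.11 without middle-aged 3) and mitosis (-0.49, and -0.79 in array set 1 alone).

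Replicate numbers are shared between ages. Of 13 same-numbered pairs only 5 had deviations correlating above 0.1 (r -0.48 to 0.26). These correlations are descriptive and do not settle whether the numbers mark a pairing. With the replicate number as a block 0 genes passed.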
